A study of Mus musculus with 4 samples.

Results

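The 6 genes followed here belong to the glucocorticoid response and were read through the cell classes of the mouse medial prefrontal cortex: Nr3c1, Nr3c2, Fkbp5, Tsc22d3, Sgk1 and Zbtb16. They were taken by symbol, and all 6 were present among the 32287 features of the count matrix. Single-nucleus RNA sequencing had been done on this tissue 24 hours after an injection of DOI, a psychedelic agonist of serotonin receptors, or of saline, in C57BL/6J animals aged 9 weeks. The labels give 2 DOI samples (1 female, 1 male) and 2 saline samples (1 female, 1 male). In both groups the tissue carried scFLARE2, which needs light together with raised calcium to switch on a TRE promoter, and the reporter TRE-mCherry-p2a-bReaChES. No source used here ties the barcodes to these samples, so the matrix counts as 1 sample, DOI was not compared with saline, and no test was possible.

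Barcode endings 1 to 4 mark 4 libraries, and their values are given one by one, as values only. They held 5721, 5278, 3076 and 8327 barcodes. Only 50 barcode sequences occurred in more than 1 library. After filtering, 12991 nuclei remained with a median of 8892 UMIs (unique molecular identifiers, each a captured RNA molecule). A class name means only that at least 3 markers listed for that class were enriched in its clusters, not that all were. Each name is therefore a likeness (L5 ET-like, microglia-like) and is written without the suffix below. There were 18 named classes. Excitatory nuclei fell into L2/3, L5 and L6 intratelencephalic (IT), L5 extratelencephalic (ET), L5/6 near-projecting (NP), L6 corticothalamic (CT) and L6b. Inhibitory nuclei fell into Pvalb, Sst, Vip and Lamp5. Striatal medium spiny neurons and neuroblasts made up 338 and 208 nuclei. Non-neuronal nuclei were 935 oligodendrocytes, 513 astrocytes, 507 microglia, 376 oligodendrocyte precursors and 132 committed oligodendrocyte precursors. Medium spiny neurons were nearly missing from library 4, with 1 nucleus. Depth differed with class: the median was 10575 UMIs in neurons and 3011 in non-neuronal nuclei. Levels are CPM, the UMIs of a gene scaled to the same total in each class, with exact Poisson 95% intervals, which cover counting error only. Summed oligodendrocyte markers were at 10821 CPM in committed precursors, 10896 CPM in oligodendrocytes and 533 CPM in precursors. Summed precursor markers were at 512, 30.0 and 2557 CPM in that order. Whether the committed class mixes cell types was not tested.

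Corticosterone, the main glucocorticoid of the mouse, enters cells and binds the glucocorticoid receptor (Nr3c1) and, with higher affinity, the mineralocorticoid receptor (Nr3c2). The bound receptors move to the nucleus and act on genes, often through a palindromic DNA element. Fkbp5, Tsc22d3, Sgk1 and Zbtb16 are widely used response genes. Fkbp5 encodes a co-chaperone that lowers the receptor's affinity for hormone, Tsc22d3 the leucine zipper protein GILZ, which dampens inflammatory signalling, Sgk1 a kinase that regulates ion transport, and Zbtb16 the zinc finger repressor PLZF. Microglia are the resident macrophages of the brain, oligodendrocytes make myelin, and committed precursors stand between precursor and oligodendrocyte.

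All of them are protein-coding genes in GENCODE M21 on GRCm38, the assembly that mm10 denotes. Nr3c2 lies at chr8:76899442-77245012 on the plus strand and Fkbp5 at chr17:28399094-28517527 on the minus strand. Tsc22d3 lies at chrX:140539528-140600659 on the minus strand, Sgk1 at chr10:21882184-21999903 on the plus strand, and Zbtb16 at chr9:48654297-48836222 on the minus strand. Exons cover between 1.87% of the gene (Nr3c2) and 7.99% (Fkbp5). No other gene overlaps Nr3c1, Tsc22d3, Sgk1 or Zbtb16 in that annotation. Short or predicted genes overlap Nr3c2 (3 genes) and Fkbp5 (4 genes). Of these, the ones among the features, Gm10649 and Gm22146, lie on the other strand. Whether reads were shared was not tested.

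The receptor element consists of the hexamers AGAACA and TGTTCT, 3 bases apart, and reads the same on both strands. It was searched for in the 250 bases before each annotated start (RefSeq, GRCm38.p6), where 4 of the 6 genes had 11 windows. One Sgk1 window held the complete element, starting 189 bases before the start site, with a further hexamer 242 bases before it. Only 3 of 32851 windows in the genome held it (0.00913%). A single hexamer occurred in 16.1% of all windows, and also stood in 2 other Sgk1 windows and in 1 of 3 Tsc22d3 windows. Of the 20 further response genes read below, 19 had windows. The complete element stood in those of 0 of these genes and a hexamer in those of 1. No hexamer stood in the windows of Fkbp5 or Nr3c2, which says only that these letters are absent there. The complete-element window of Sgk1 is shown with the single-hexamer window of Tsc22d3, and with the windows of Fkbp5 and Nr3c2 for contrast. Capitals mark the hexamers.
Sgk1, chr10:21993640-21993889, plus strand: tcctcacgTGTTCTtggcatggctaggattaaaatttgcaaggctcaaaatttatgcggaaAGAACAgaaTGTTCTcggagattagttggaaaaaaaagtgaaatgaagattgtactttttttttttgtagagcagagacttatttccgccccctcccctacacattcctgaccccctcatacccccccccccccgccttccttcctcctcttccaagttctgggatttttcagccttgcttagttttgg
Tsc22d3, chrX:140600523-140600772, minus strand: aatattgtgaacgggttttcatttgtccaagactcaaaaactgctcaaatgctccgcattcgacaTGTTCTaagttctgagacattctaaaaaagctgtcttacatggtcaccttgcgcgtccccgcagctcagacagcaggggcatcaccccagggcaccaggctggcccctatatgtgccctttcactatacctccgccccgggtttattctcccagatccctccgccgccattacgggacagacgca
Fkbp5, chr17:28486150-28486399, minus strand: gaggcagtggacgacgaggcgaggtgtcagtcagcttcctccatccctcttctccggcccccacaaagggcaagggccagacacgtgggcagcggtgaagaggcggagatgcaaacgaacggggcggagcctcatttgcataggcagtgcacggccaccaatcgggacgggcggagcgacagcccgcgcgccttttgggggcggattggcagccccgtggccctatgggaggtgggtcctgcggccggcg
Nr3c2, chr8:76902080-76902329, plus strand: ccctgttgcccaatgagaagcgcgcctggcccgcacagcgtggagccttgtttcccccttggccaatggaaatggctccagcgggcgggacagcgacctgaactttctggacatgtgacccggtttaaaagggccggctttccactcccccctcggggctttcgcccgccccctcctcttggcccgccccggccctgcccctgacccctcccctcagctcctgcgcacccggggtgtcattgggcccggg

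The glucocorticoid receptor gene Nr3c1 was present in every class, and its range was the narrowest of the 6. The gene lies at chr18:39410545-39519421 on the minus strand of GRCm38. It was highest in microglia, at 300.4, 257, 270.1 and 329.9 CPM in libraries 1 to 4 and 282 CPM pooled (95% interval 254 to 313). L6 CT nuclei followed at 189.5, 203, 190.0 and 191 CPM. The lowest class, striatal medium spiny neurons, had 80.1 CPM pooled, so the whole range over classes was 3.53-fold. This lowest rank was not separated from Lamp5 (83.4 CPM), which was higher in 1 of 4 libraries. Microglia exceeded L6 CT in all 4 libraries, the clearest step in the order. Below it, 7 classes from L6 CT to L6 IT (193 to 149 CPM) formed a run in which no neighbours differed beyond counting error and in all libraries alike. A second step separated L6 IT from L2/3 IT (149 and 111 CPM). The 4 inhibitory classes were close to each other, between 83.4 and 86.4 CPM. Excitatory nuclei exceeded inhibitory nuclei in all 4 libraries, at 139 and 85.3 CPM (log2 ratio 0.70, 95% interval 0.62 to 0.79), which is under 2-fold.

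Shares of nuclei with a UMI depend on depth, so they were also read after every nucleus had been thinned to 1500 UMIs. Nr3c1 was seen in 47.3% of microglia and 76.1% of L6 CT nuclei as sequenced, whose median depths were 2353 and 9844 UMIs. After thinning the order turned, with 32.4% of microglia (28.1% to 36.9%, Clopper-Pearson) and 23.1% of L6 CT nuclei (21.5% to 24.9%).

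The mineralocorticoid receptor gene Nr3c2 was far more selective. Vip interneurons had 922, 903, 909 and 685 CPM in libraries 1 to 4, with 849 CPM pooled (809 to 891). L5/6 NP nuclei, the lowest class, had 30.4, 28.1, 34.2 and 40.2 CPM, and the classes spanned 24.9-fold. The Vip values lay far above the L5/6 NP values in every library. After Vip came L5 ET (399 CPM), Lamp5 (341), astrocytes (303) and medium spiny neurons (276), whose neighbours were not separated in every library. Among inhibitory classes, Vip exceeded the other classes together (849 against 166 CPM, log2 ratio 2.35, 2.26 to 2.45). Sst was lower than the other inhibitory classes (88.0 against 350 CPM, log2 ratio -1.99, -2.16 to -1.83). Among glia, astrocytes were higher than the other non-neuronal classes, at 265, 321, 379 and 274 CPM in the 4 libraries and 303 against 92.3 CPM pooled (log2 ratio 1.72, 1.55 to 1.88). The share of nuclei with a UMI after thinning was 61.6% in Vip, 37.9% in astrocytes and 4.50% in L5 IT, the lowest share of any neuronal class, although its nuclei were deep, with a median of 12475 UMIs.

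Over the excitatory classes Nr3c2 ran between 34.1 and 399 CPM, and Nr3c1 between 99.9 and 193 CPM. L5 ET was higher than the other excitatory classes (399 against 77.7 CPM, log2 ratio 2.36, 2.31 to 2.41). L5 IT (35.4 CPM), L5/6 NP (34.1 CPM), L6b (39.1 CPM) and L6 CT (57.0 CPM) were each over 2-fold lower than the rest of the excitatory classes and lower in all 4 libraries, with log2 ratios of -2.09, -1.92, -1.71 and -1.38. In each case the rest included L5 ET, which held 5845 Nr3c2 UMIs, against 6545 in all other named excitatory classes together. L6 CT lay between L2/3 IT (112 CPM) and L6b in level. Ratios without L5 ET were not tested. L2/3 IT and L6 IT did not pass 2-fold in either direction.

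**Figure D1:**
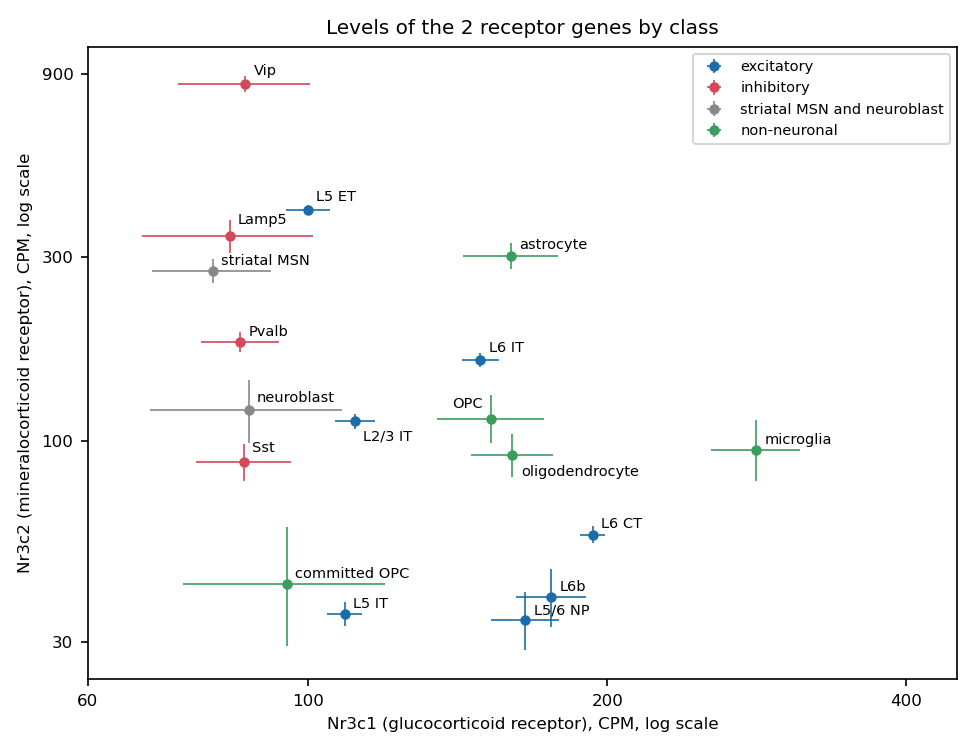
Pooled level of Nr3c2 (vertical) against Nr3c1 (horizontal) in each of 18 classes, in CPM on log scales, with exact 95% counting intervals as bars. Vip nuclei stand at the top at 849 CPM of Nr3c2 and 86.4 CPM of Nr3c1, and microglia stand farthest right at 282 CPM of Nr3c1. The axes have separate scales and are not compared with each other.

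Across the 18 classes the 2 receptor genes ran in partly opposite order (Pearson r -0.42 and Spearman rho -0.52 of log2(CPM + 1), a description over classes that share libraries and depth). Both receptors were seen in the same nucleus in 63.7% of L5 ET nuclei (60.5% to 66.7%), where the product of the 2 shares is 63.5%. In Vip nuclei the share with both was 38.6% (32.3% to 45.2%), and 53.6% had Nr3c2 without Nr3c1. In L6 CT the order was the other way: 26.0% had both, and 50.04% had Nr3c1 without Nr3c2. Among astrocytes, 27.3% had both and 31.0% had Nr3c2 alone, whereas 38.1% of microglia had Nr3c1 alone. A gene unseen in a nucleus is not shown to be absent, since these shares depend on depth.

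Fkbp5 was highest in microglia. There it stood at 1031, 652, 1008 and 893 CPM in libraries 1 to 4, with 849 CPM pooled (800 to 901). Oligodendrocytes had 302, 261, 264 and 357 CPM, and astrocytes had 320, 96.2, 136 and 282 CPM. All 4 microglial values lay above every value of the other classes. Microglia exceeded the other non-neuronal classes together (849 against 208 CPM, log2 ratio 2.03, 1.92 to 2.14). Oligodendrocyte precursors (119 against 351 CPM, log2 ratio -1.56) and committed precursors (84.9 against 327 CPM, log2 ratio -1.95) were lower than the other non-neuronal classes. Those other classes included microglia, which held 1103 of the 2409 UMIs set against the precursors. Ratios without microglia were not tested. Precursors exceeded L6b, the highest neuronal class (89.4 CPM), in all 4 libraries. At least 1 Fkbp5 UMI was seen in 75.3% of microglia, and in 63.7% after thinning (59.0% to 68.1%). The lowest share after thinning was 3.03% in Lamp5 nuclei (0.832% to 7.58%).

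Within neurons Fkbp5 was 89.4 CPM in L6b, 81.7 CPM in L5/6 NP, 70.1 CPM in Vip, 64.8 CPM in L2/3 IT and 63.3 CPM in L5 ET, and the lowest levels were 31.3 CPM in Pvalb, 30.7 CPM in L5 IT and 25.1 CPM in Lamp5. No neuronal class passed 2-fold for Fkbp5 against the other classes of its kind, except Lamp5 without library 1 (log2 ratio -1.38, against -0.87 with it) or with the mean of the libraries' log2 ratios (-1.12). L5/6 NP was at 100.5, 57.3, 48.9 and 93.9 CPM in the 4 libraries, and Vip at 100.5, 48.1, 45.6 and 79.7 CPM. In both classes libraries 1 and 4 were the higher ones, and the range between libraries exceeded 2-fold. These values rest on 314 UMIs in L5/6 NP and 138 in Vip.

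Tsc22d3 was highest in glial classes and had the widest range of the 6. Oligodendrocytes had 262, 230, 252 and 196 CPM in libraries 1 to 4, and astrocytes 184, 105, 119 and 153 CPM. Committed precursors had 169, 24.4, 109 and 78.9 CPM, from between 21 and 50 nuclei a library, and microglia 108, 67.5, 76.1 and 72.4 CPM. The value of the committed precursors varied with the filters and the clustering. Their log2 ratio to the other non-neuronal classes was -0.36, but -3.62 with a higher minimum of genes a nucleus, -2.82 with up to 20% mitochondrial UMIs, -2.89 with doublets kept and -3.85 at clustering resolution 2. Oligodendrocyte precursors had only 20.99, 6.81, 3.53 and 10.1 CPM, from 18 UMIs in all. The precursor values lay below every value of oligodendrocytes, astrocytes and microglia, and the contrast with committed precursors changed with those settings. Oligodendrocytes exceeded the other non-neuronal classes (237 against 84.4 CPM, log2 ratio 1.49, 1.32 to 1.66), and precursors were lower (10.6 against 163 CPM, log2 ratio -3.94, -4.70 to -3.28). Neuroblasts had 17.0 CPM, and all other neuronal classes lay between 3.06 CPM (L2/3 IT) and 7.18 CPM (Pvalb). The 18 classes spanned 77.4-fold. The levels in excitatory and inhibitory nuclei rest on 476 UMIs, and 4.69% of these 9621 nuclei held one. No pair of neighbours among the neuronal classes was separated.

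Sgk1 split the glial classes. Oligodendrocytes had 389, 359, 402 and 394 CPM in libraries 1 to 4, and precursors 357, 236, 339 and 247 CPM. Astrocytes had 21.2, 27.5, 0 and 18.0 CPM, from 38 UMIs in 513 nuclei. The library with no UMI allows a level of up to 8.48 CPM (3 counts). All 4 astrocyte values therefore lay below every value of the other 17 classes in the same libraries, whose lowest pooled level was 50.6 CPM in L5 IT. Against the other non-neuronal classes, oligodendrocytes were higher (385 against 139 CPM, log2 ratio 1.47, 1.34 to 1.60), astrocytes lower (18.3 against 281 CPM, log2 ratio -3.94, -4.44 to -3.47) and microglia lower (109 against 236 CPM, log2 ratio -1.11, -1.37 to -0.86). The microglial difference was under 2-fold without library 1 (log2 ratio -0.94). Sgk1 UMIs were seen in 61.7% of oligodendrocytes and 7.02% of astrocytes, and after thinning in 42.9% and 3.19%.

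Among neurons Sgk1 was highest in striatal medium spiny neurons (251 CPM), L6 CT (202 CPM), Vip (192 CPM) and Pvalb (191 CPM). L6 CT stood at 184, 198, 228 and 210 CPM in the 4 libraries, and L5 IT at 52.6, 49.96, 54.3 and 48.0 CPM. The 2 classes did not overlap in any library. L5 IT was lower than the other excitatory classes (50.6 against 126 CPM, log2 ratio -1.32, -1.41 to -1.23), and L6 CT was higher (202 against 78.1 CPM, log2 ratio 1.37). L6 CT itself consisted of 2 clusters of 1564 and 814 nuclei. Sgk1 did not separate them, at 201 CPM in the larger and 203 CPM in the smaller cluster (log2 ratio -0.01). None of the 6 genes passed 2-fold between these clusters, against 3.09% of the genes tested. Fkbp5 (45.5 against 59.8 CPM) and Nr3c1 (181 against 221 CPM) were lower in the larger cluster in all 4 libraries, and Nr3c2 was higher (61.8 against 46.3 CPM).

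Zbtb16 was highest in oligodendrocytes, at 520, 538, 630.1 and 730 CPM in libraries 1 to 4 and 597 CPM pooled (568 to 627). Vip had 469, 574, 487 and 458 CPM and Lamp5 496, 449, 645 and 482 CPM, and these 3 leading classes were not separated from each other in every library. Striatal medium spiny neurons had 13.7 CPM from 36 UMIs, and microglia 81.6, 28.9, 30.4 and 92.5 CPM. Apart from the medium spiny neurons, microglia were the lowest class, and the classes spanned 43.7-fold. Oligodendrocytes exceeded the other non-neuronal classes (597 against 245 CPM, log2 ratio 1.28, 1.18 to 1.39), and microglia were lower (52.3 against 411 CPM, log2 ratio -2.97, -3.34 to -2.63). Committed precursors were also lower (177 against 374 CPM, log2 ratio -1.08), but by less than 2-fold without library 3 (-0.93) or without library 4 (-0.99). Among inhibitory classes, Vip (500 against 203 CPM, log2 ratio 1.30) and Lamp5 (491 against 223 CPM, log2 ratio 1.14) were higher, and Sst was lower (139 against 296 CPM, log2 ratio -1.09). The Sst difference was under 2-fold without library 1 or without library 2 (log2 ratio -0.97 each). Among excitatory classes none passed 2-fold, although L5/6 NP at 379 CPM and L2/3 IT at 185 CPM were at the ends. Zbtb16 UMIs were seen in 71.2% of oligodendrocytes, 8.88% of microglia and 5.92% of medium spiny neurons, and after thinning in 53.8%, 5.95% and 0.297%.

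**Figure D2:**
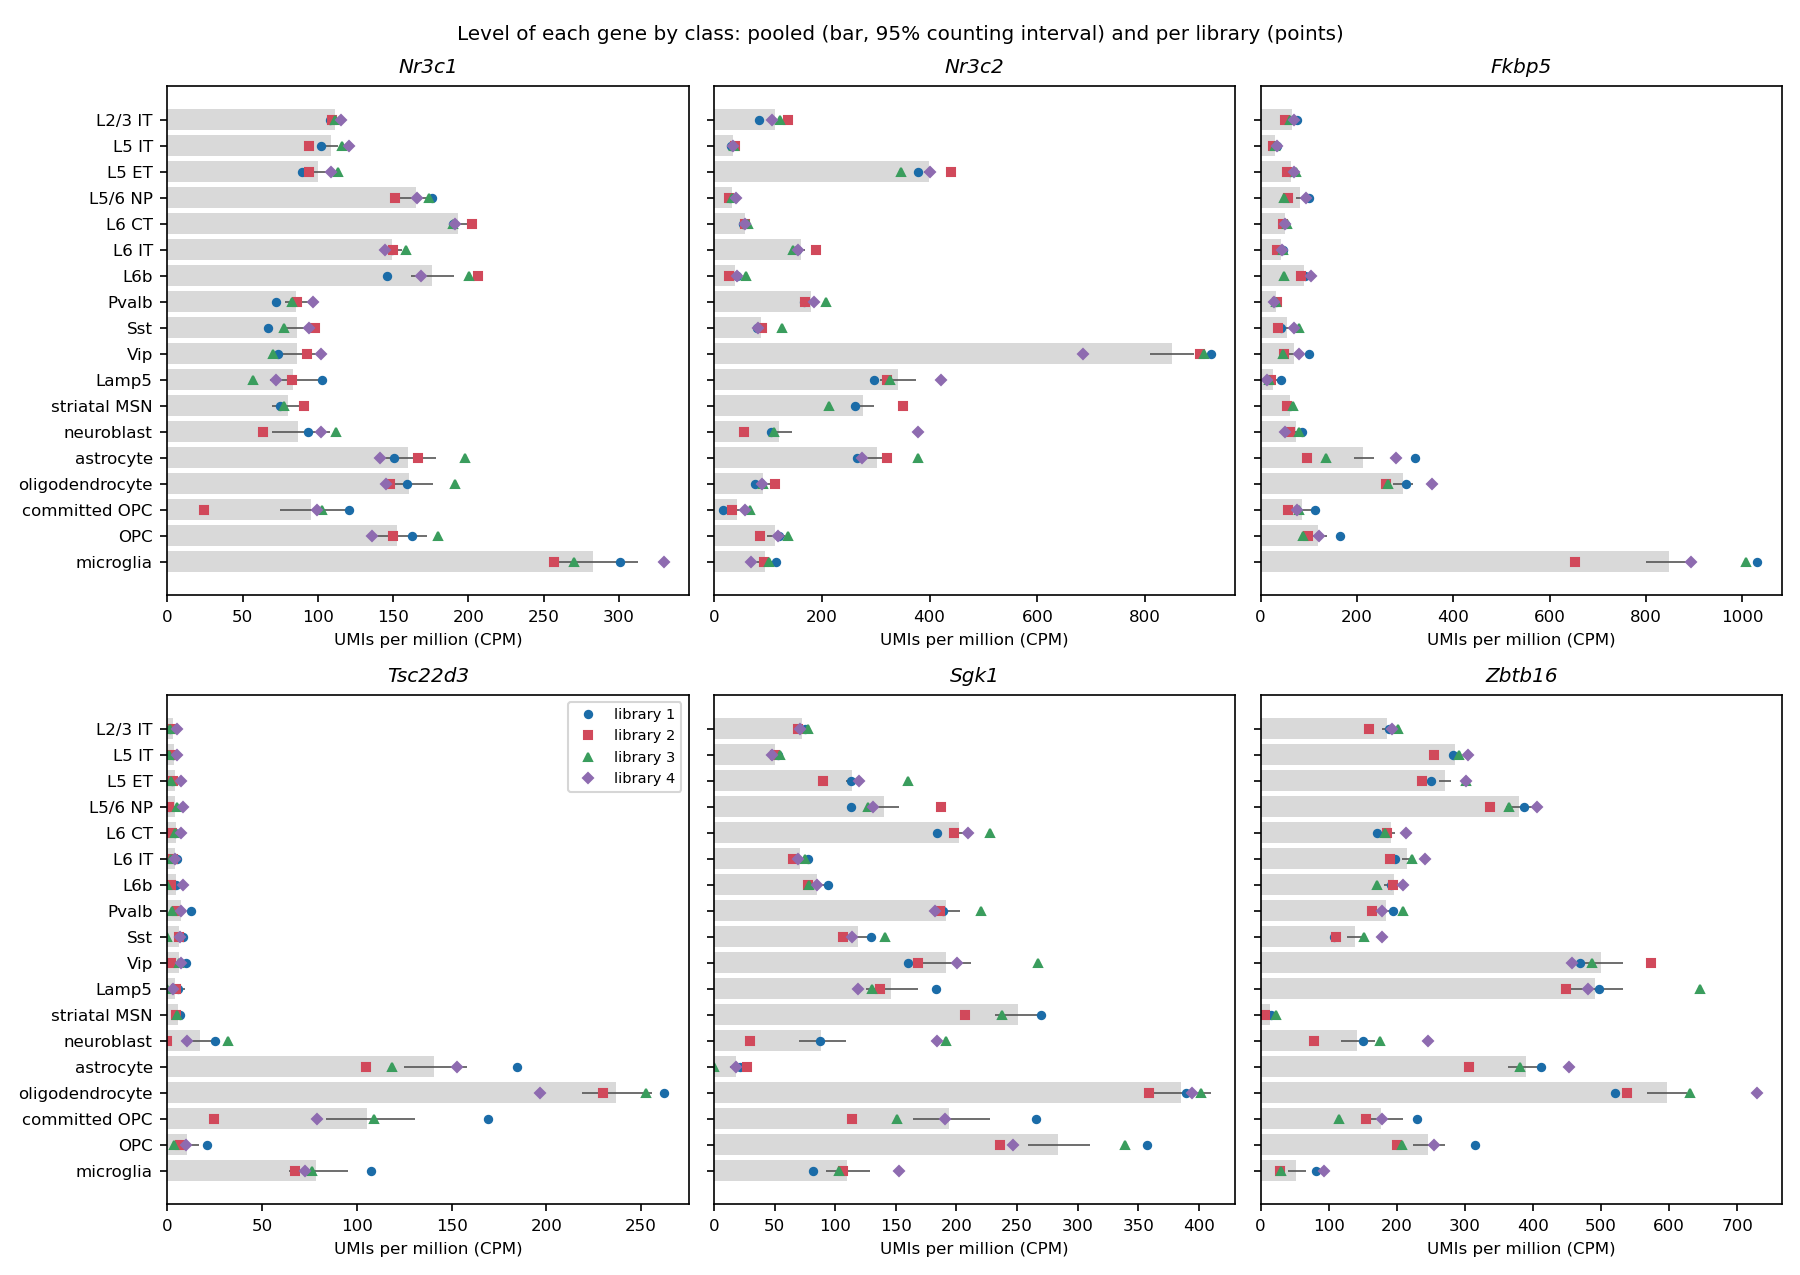
Level of each gene in 18 classes in CPM: bars give the pooled level with its exact 95% counting interval, and points the 4 libraries (library 4 is left out for the striatal medium spiny neurons, which had 1 nucleus there). Nr3c2 peaks in Vip (849 CPM), Fkbp5 in microglia (849 CPM), and Tsc22d3, Sgk1 and Zbtb16 in oligodendrocytes (237, 385 and 597 CPM).

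UMIs of excitatory neuron markers were present in the glial classes. These 5 markers, all detected in each class, summed to 541 CPM in astrocytes, 626 in oligodendrocytes, 404 in committed precursors, 476 in precursors and 749 in microglia, against 788 CPM in excitatory nuclei. The part of neuronal RNA in the glial levels was not tested. In the same classes, Sgk1 was at 18.3 CPM in astrocytes against 115 CPM in neurons, and Zbtb16 at 52.3 CPM in microglia against 234 CPM in neurons. The level of Fkbp5 in microglia and of Tsc22d3 in oligodendrocytes exceeded that of every neuronal class. Other glial levels lay nearer to the neuronal ones, such as those of Sgk1 (109 against 115 CPM in neurons) and Nr3c2 (94.7 against 145 CPM) in microglia.

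The size rule used for these statements asked for at least 100 UMIs in the nuclei compared, at least a 2-fold ratio and the same sign in all 4 libraries. Between neurons and non-neuronal nuclei 2 of the 6 genes passed it, Fkbp5 and Tsc22d3, both lower in neurons, beside 40.7% of all genes tested. The median log2 ratio was -0.74 over the 6 genes and -0.41 over all genes tested. The other 4 were also at or below the non-neuronal level, at 133 against 172 CPM for Nr3c1, 145 against 146 CPM for Nr3c2, 115 against 213 CPM for Sgk1 and 234 against 351 CPM for Zbtb16. Between excitatory and inhibitory nuclei 1 gene passed, Nr3c2, which was lower in excitatory nuclei (129 against 271 CPM, log2 ratio -1.07), beside 16.7% of all genes. That difference fell under 2-fold without library 3 (log2 ratio -0.996) and with median-of-ratios size factors (log2 ratio -0.94). It was also uneven over the inhibitory classes. Vip nuclei held 1671 Nr3c2 UMIs, against 1789 in the other named inhibitory classes together, and Sst (88.0 CPM) lay below the excitatory level. The ratio without Vip was not tested. Without library 4, Tsc22d3 passed as well (log2 ratio -1.17).

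In the excitatory classes, 2 of the 6 genes passed in L5 IT, 1 in L5 ET, 1 in L5/6 NP, 2 in L6 CT and 1 in L6b, and none in L2/3 IT or L6 IT. The shares over all genes were 6.76%, 9.76%, 14.5%, 10.3%, 12.3%, 9.03% and 6.31% in that order. In the inhibitory classes, where 5 of the 6 genes had enough UMIs, 2 passed in Sst, 2 in Vip, 1 in Lamp5 and none in Pvalb, beside 6.57%, 10%, 9.47% and 8.45% of all genes. In the non-neuronal classes, 2 passed in astrocytes, 3 in oligodendrocytes, 3 in committed precursors, 2 in precursors and 3 in microglia, beside 25.9%, 27.7%, 23.8%, 23.3% and 33.8% of all genes. Nr3c2 took 10 of the 28 passes, and Nr3c1 took none. Under 5 alternatives at the same 2-fold, one of them leaving out library 1 (log2 ratio -1.11), Nr3c1 passed as lower in committed precursors, with log2 ratios between -1.28 and -1.02 against -0.91 otherwise. Without library 4, Nr3c2 passed as lower in Pvalb (log2 ratio -1.09).

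**Figure D3:**
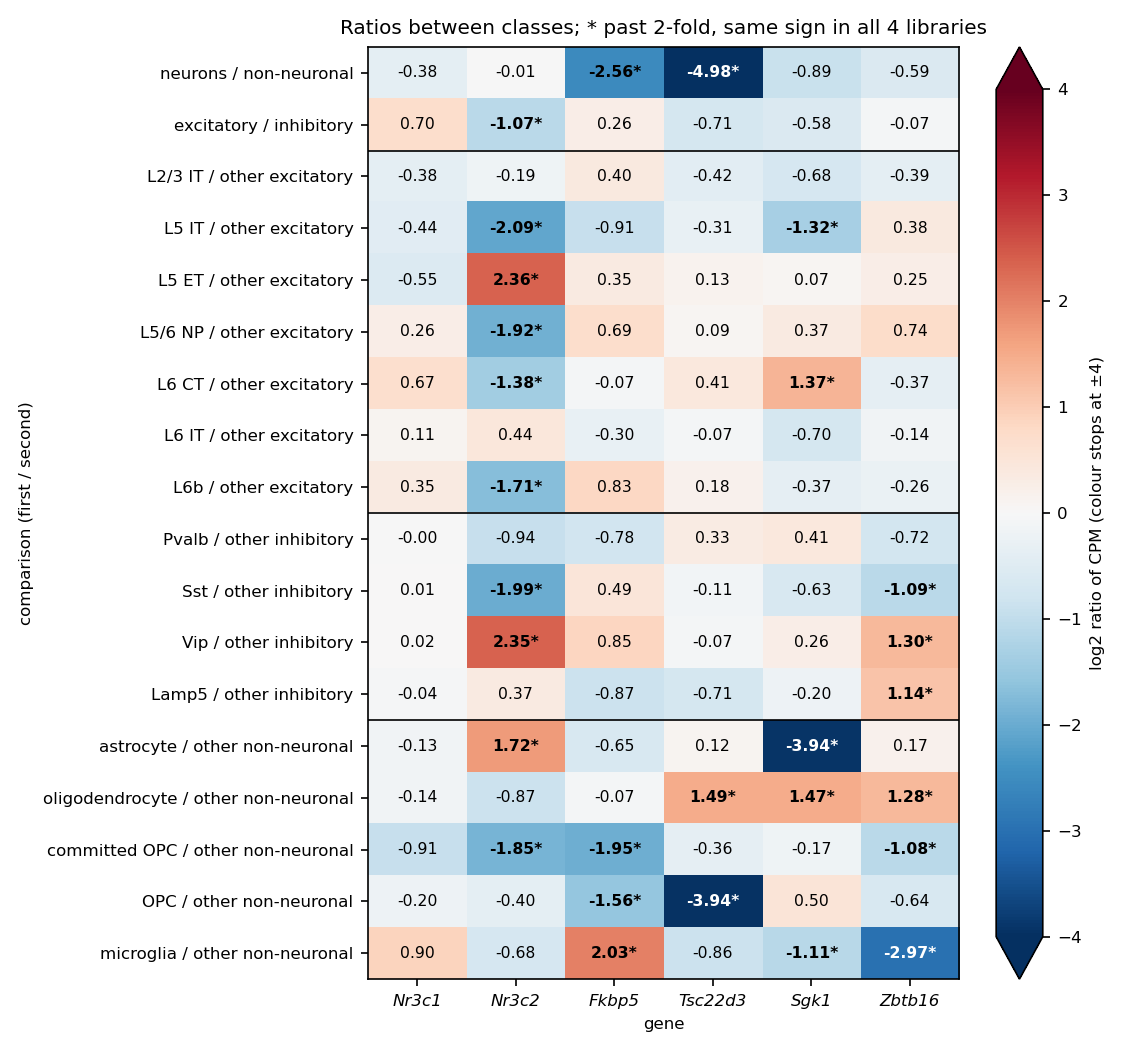
Log2 ratio of CPM for each gene (columns) between the class named first and the classes named second (rows), as colour and number. Bold values with an asterisk passed 2-fold with the same sign in 4 libraries. Nr3c1 passed in no row, and the lowest values are those of Tsc22d3 in neurons (-4.98) and in precursors (OPC, -3.94) and of Sgk1 in astrocytes (-3.94).

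Other genes of the pathway were read from 8 lists of 63 genes. Of the 20 further response genes, 19 had enough UMIs in neurons and non-neuronal nuclei together. Of these, 15 were lower in neurons and none higher (median log2 ratio -2.04, against -0.41 over all genes), beside 40.7% of all genes called in either direction and 4237 of 16510 called lower. The largest ratios were those of Mertk, a phagocytic receptor (2.47 against 751 CPM), Pdk4, a mitochondrial kinase (0.229 against 19.3 CPM), and Hif3a, a transcription factor (1.82 against 77.8 CPM). In astrocytes 8 of 18 were higher and 3 lower than in the other non-neuronal classes, with Hif3a higher (219 against 29.5 CPM) and Plin4 and Errfi1 lower (4.82 against 37.5 CPM and 14.5 against 61.7 CPM). Of all 10223 genes, 950 were higher and 1701 lower there (25.9%). In oligodendrocytes 4 were higher and 2 lower, with Plin4, a lipid droplet coat protein (83.2 against 4.78 CPM), and Arrdc2 (126 against 12.0 CPM) higher and Mertk lower (3.70 against 1105 CPM), a share of 6 in 18 that is near the 27.7% of all genes. In oligodendrocyte precursors 13 of 18 were lower and none higher, among them Plin4 (2.35 against 36.3 CPM) and Arrdc2 (5.88 against 58.4 CPM), beside 23.3% of all genes called and 1535 of 10223 lower. In committed precursors 10 of 18 were lower and none higher, beside 23.8% of all genes called and 1960 lower. In microglia 3 were higher and 6 lower, beside 33.8% of all genes called.

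Of the 7 genes listed as receptor chaperones, 4 were lower in neurons and none higher (all genes: 40.7% called, 4237 of 16510 lower). The largest ratios were those of Bag1 (15.4 against 39.5 CPM), Hsp90aa1 (137 against 341 CPM) and Hspa8 (196 against 472 CPM). No chaperone passed between excitatory and inhibitory nuclei or in any glial class. None of the 10 coregulators passed between neurons and non-neuronal nuclei. Microglia were higher in 3 of the 10, Nrip1 (390 against 63.3 CPM), Ncoa3 (200 against 70.1 CPM) and Ep300 (256 against 97.4 CPM). Since 33.8% of all genes were called in microglia, 1584 of 10223 of them higher, this count says nothing particular to the coregulators. Of 7 enzymes and transporters that set the local steroid level, 5 were measurable, of which 2 were higher and 2 lower in neurons (40.7% of all genes called). Their levels differed widely: Cyp7b1 reached 130 CPM in astrocytes and Abcb1b 81.6 CPM in microglia, the highest class for each. The glucocorticoid-activating enzyme Hsd11b1 was lower in neurons (2.80 against 6.77 CPM) and the 5-alpha reductase Srd5a1 was higher (20.8 against 8.14 CPM). The 3 measurable genes of the corticotropin-releasing hormone system all passed between excitatory and inhibitory nuclei, where 16.7% of all genes did: the receptor Crhr1 was higher in excitatory nuclei (18.9 against 2.08 CPM), and the binding protein Crhbp (2.17 against 29.7 CPM) and the hormone Crh (0.577 against 4.77 CPM) were lower in excitatory nuclei. The progesterone receptor gene Pgr was higher in neurons (41.2 against 7.22 CPM).

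Of 5 paralogs of the 6 genes, 3 were lower in neurons and none higher (40.7% of all genes called). In oligodendrocytes 2 were higher and 1 lower (27.7% of all genes called). The kinase Sgk3 was higher in oligodendrocytes than in the other non-neuronal classes (280 against 78.1 CPM), and so was Sgk2 (30.7 against 7.52 CPM). The pooled level of Sgk2 in committed precursors was 54.0 CPM. Sgk2 had no UMI in astrocytes or microglia, which allows up to 1.45 and 2.31 CPM. Of the 5 substrates of the kinase, 4 were lower and 1 higher in neurons than in non-neuronal nuclei (40.7% of all genes called). Among them, the myelin-associated gene Ndrg1 was higher in oligodendrocytes (162 against 13.3 CPM), while Ndrg2 (52.2 against 198 CPM), Foxo1 (43.3 against 126 CPM) and Nedd4l were lower there (96.2 against 197 CPM). In astrocytes the order was the other way, with Ndrg2 (445 against 57.7 CPM) and Foxo1 (292 against 38.7 CPM) higher and Ndrg1 lower (4.34 against 78.1 CPM).

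The pattern of each gene over the 18 classes was compared with that of 10932 genes of at least 500 UMIs, by Pearson r of log2(CPM + 1). These correlations share libraries and depth and carry no test. The nearest to Tsc22d3 were Neat1 (r 0.97), a nuclear long noncoding RNA, Phgdh (0.96), an enzyme of serine synthesis, and Ddit4 (0.96), a growth inhibitor induced by stress. The nearest to Fkbp5 were Ykt6 (0.92), Mrpl43 (0.92) and Dhrs7b (0.92), and to Nr3c1 Traf5 (0.88), Vhl (0.84) and Tbr1 (0.84). Sgk1 was nearest to Pik3c2b (0.86), Me2 (0.77) and Kazn (0.75), and Zbtb16 to Nrbp2 (0.81), Cuedc1 (0.75) and Arhgef37 (0.74). Nr3c2 had the weakest likeness, with Idh3b (0.74), Trpc7 (0.70) and Nt5dc3 (0.69). Among the 6 genes themselves the highest values were those of Fkbp5 with Tsc22d3 (r 0.76) and of Nr3c1 with Fkbp5 (r 0.68). Those of Sgk1 and of Zbtb16 with the other genes lay between -0.13 and 0.07.

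Of the 3 largest glial classes, the widest range of a well-counted member between libraries was that of Fkbp5 in astrocytes. There Fkbp5 was 320 CPM in library 1, 96.2 in library 2, 136 in library 3 and 282 in library 4, a range of 3.33-fold. A range of 2-fold or more was seen in 18.4% of the 3733 genes with at least 10 UMIs in each library there. Tsc22d3 in the same astrocytes had 184, 105, 119 and 153 CPM, with the same order of libraries, and Nr3c1 had 151, 167, 198 and 141 CPM. In microglia Fkbp5 spread 1.58-fold and in oligodendrocytes 1.36-fold. Each gene was then read in the classes with at least 100 of its UMIs and at least 20 nuclei in each library, which were 13 for every gene but Tsc22d3. Library 2 was the lowest for Fkbp5 in 9 classes and for Zbtb16 in 8, and library 1 was the highest for Fkbp5 in 7. For Nr3c1 and Nr3c2 no class of the 13 reached a 2-fold range, against 4 for Fkbp5. The summed excitatory markers also differed between libraries, between 299.7 and 687 CPM in astrocytes, and their part in the spread was not tested. What animal, sex or treatment each library holds is not known here.

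**Figure D4:**
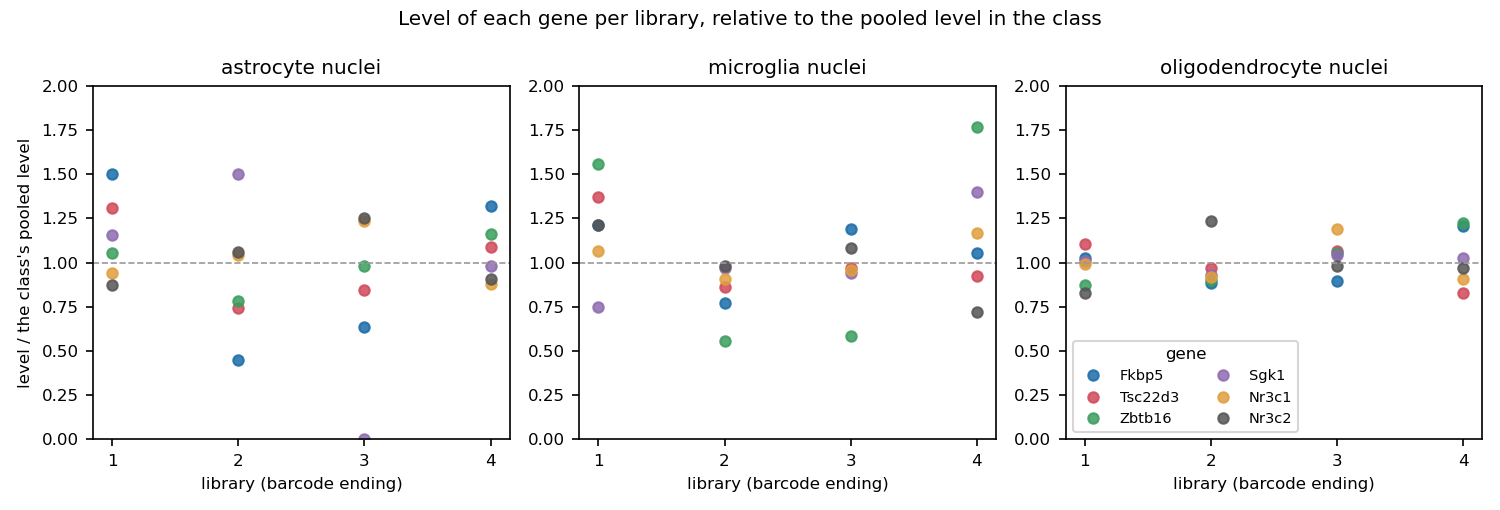
Level of each gene in each of 4 libraries (horizontal, barcode ending) divided by the pooled level of the class (vertical), in astrocytes, microglia and oligodendrocytes. Fkbp5 in astrocytes spreads most among the well-counted genes, from 96.2 to 320 CPM, and Sgk1 in astrocytes and Zbtb16 in microglia rest on 38 and 68 UMIs.

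Nuclei with at least 1 UMI of the reporter were compared with the others of their class, in the 5 classes with at least 50 such nuclei. Reporter UMIs were seen in between 2.88% of neuroblasts and 13.04% of L2/3 IT nuclei, and in 5.52% of microglia. None of the genes with enough UMIs passed in L2/3 IT, L5 IT, L5 ET, L6 CT or L6 IT, where 0.355%, 0.405%, 0.713%, 0.676% and 1.03% of all genes did. The highest ratio among them was that of Fkbp5 in L5 ET, at 86.9 CPM in reporter-positive and 60.4 CPM in reporter-negative nuclei (log2 ratio 0.52, 0.25 to 0.79). It was positive in 3 of 4 libraries, and after thinning it was 0.29. Positive L5 ET nuclei were deeper, with a median of 15442 UMIs against 13781. In L6 CT, the class with most positive nuclei (214), the ratios ran from -0.52 for Tsc22d3 (9 UMIs in positive nuclei) to 0.34 for Nr3c2 (0.11 to 0.57), which was higher in 2 libraries and lower in the other 2.

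Filtering removed 9411 barcodes, of which 8638 had a mitochondrial share over 5%. Tsc22d3 was the 1 gene of the 6 that passed the size rule between removed and kept barcodes, at 50.5 against 13.5 CPM (log2 ratio 1.90), beside 31.7% of all genes tested. Nr3c2 (log2 ratio -0.98) passed as lower without library 1 (-1.04), and with a limit of 20% mitochondrial UMIs both Nr3c2 (-1.31) and Zbtb16 (-1.15) did. The removed barcodes also had higher levels of each of the marker lists compared. Astrocyte markers (7 genes) were at 2550 against 665 CPM and oligodendrocyte markers (7 genes) at 2171 against 545 CPM. Microglia markers were at 400 against 168 CPM, endothelial markers at 47.5 against 7.87 CPM, and oligodendrocyte precursor markers at 88.2 against 62.2 CPM. Excitatory neuron markers were at 1413 against 707 CPM and inhibitory neuron markers at 291 against 170 CPM. Their part in the Tsc22d3 level was not tested.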

How the data were processed

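Nuclei of frozen medial prefrontal cortex were sequenced with 10x Genomics 3' chemistry, and the authors deposited 1 matrix of raw UMI counts for all 4 samples, made with Cell Ranger 7.1.0 (the version stands per the file headers, and also in the submitters' processing notes). The features include the transgenes, and whether intronic reads were counted is not given in the sources used here. Barcode endings are not tied to samples, so the 4 libraries were pooled as 1 sample and no test across samples was made. The members and lists were chosen with earlier results of these data known.

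Barcodes with at least 500 genes, 800 UMIs and at most 5% mitochondrial UMIs were kept, and 279 with a doublet score above 0.25 were removed within each library, which left 12991 of 22402. Kept nuclei had a median of 7305 to 10314 UMIs, depending on the library. Nuclei were scaled to 10000 UMIs, and 2000 variable genes, 30 components and 15 neighbours gave 24 clusters at resolution 1 (scanpy 1.11.5). Clusters were named from marker lists, with at least 3 markers enriched at least 1.5-fold. Some listed markers were not higher in their class than in the other kept nuclei. In L5 IT these were Pld5 (27.6 against 28.9 CPM) and Batf3 (0.642 against 0.671 CPM). The others were Penk in L6 IT (11.3 against 13.9 CPM), Eya4 in Lamp5 (14.6 against 17.9 CPM) and Vipr2 in Pvalb (0 against 0.509 CPM). The remaining markers were higher in their class. After the data were seen, the naming rule was changed so that excitatory markers were read against inhibitory and striatal clusters and shallow clusters were judged against the median of all barcodes, 5041 UMIs, and mixed clusters were judged without red blood cell markers. In all, 495 nuclei stayed unnamed.

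Counts were summed per class. A difference passed at 100 UMIs, 2-fold and the same sign in 4 libraries. Named genes of a list were the 3 with the largest ratios among those that passed, and others are named beside them for the kinases and their substrates and for single results, chosen after their values were seen. Ratio intervals are exact binomial, and shares have Clopper-Pearson intervals, all at 95%. They cover counting error only. Thinning drew 1500 UMIs a nucleus. The rule for passing was tried on simulated counts with known fold changes and no spread between libraries beyond counting error. Filters, clusters and class names were not part of that trial. There were 17 alternatives.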

Additional observations from a re-analysis of the deposited data

Results flagged for a closer look

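Tsc22d3 passed the size rule as higher in barcodes that the comparisons between classes do not use. So did many genes: 31.7% of the 17334 tested passed in either direction, 3143 of them as higher. In the 9411 removed barcodes it was at 50.5 CPM, against 13.5 CPM in the 12991 kept nuclei (log2 ratio 1.90), and higher in all 4 libraries. The removed barcodes held 46.7% of all Tsc22d3 UMIs and 19.0% of all UMIs. Their median depth was 2191 UMIs, against 8892 UMIs in kept nuclei. Nr3c2 was lower in removed barcodes (75.0 against 148 CPM, log2 ratio -0.98), by less than 2-fold except without library 1 (-1.04) or with a limit of 20% mitochondrial UMIs (-1.31), and Fkbp5 was 98.4 against 70.1 CPM, with 2 libraries on each side.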

How the results depend on the processing

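No ratio of the 6 genes that passed changed its direction under the 17 alternatives, and between 14 and 28 of the 28 passing ratios had a value under each. With a ratio of at least 1.5 in place of 2, 4 genes passed between neurons and non-neuronal nuclei (2 before), 3 between excitatory and inhibitory nuclei (1 before), 12 in the excitatory classes (7 before), 11 in the inhibitory classes (5 before) and 20 in the non-neuronal classes (13 before). The shares of all genes under the changed rules of this paragraph are not given here, so these counts are no result about the 6 genes. With median-of-ratios size factors, 0 passed between excitatory and inhibitory nuclei. With a minimum of 20 UMIs or none, 1 passed between reporter-positive and reporter-negative nuclei, Tsc22d3 in L6 IT (log2 ratio -1.27, 95% interval -4.35 to 0.66, from 2 UMIs in positive nuclei). Leaving out a library gave 0 to 2 between excitatory and inhibitory nuclei, 2 to 2 between neurons and non-neuronal nuclei, 7 to 7 in the excitatory, 4 to 6 in the inhibitory and 12 to 13 in the non-neuronal classes. Zbtb16 in Lamp5 was under 2-fold after thinning (log2 ratio 0.92), Zbtb16 in committed precursors with size factors (-0.77), and Sgk1 in microglia with doublets kept (-0.90) or at resolution 0.5 (-0.92). Some differences passed only under an alternative. The largest shift was that of Tsc22d3 in committed precursors, with a log2 ratio of -0.36 as reported and between -3.85 and -2.82 under 4 alternatives that changed the nuclei kept or the clustering. Ratios that passed in this class moved too. Their lowest values under an alternative were -3.52 for Nr3c2 (-1.85 as reported), -3.16 for Fkbp5 (-1.95) and -3.69 for Zbtb16 (-1.08). Tsc22d3 passed as lower in microglia under 4 alternatives (-1.62 to -1.10, -0.86 as reported), Nr3c1 in committed precursors under 5 (-1.28 to -1.02), and Nr3c2 in oligodendrocytes at resolution 0.5 (-1.10). The causes were not tested. A limit of 1% mitochondrial UMIs left no comparison among non-neuronal classes. With log2(CPM + 10), 14 of the 18 genes of like pattern were named again. No paired analysis was possible because the barcode endings carry no sample.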
